A study of Mus musculus with 25 samples.

Results

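The genes described here are 7 transporters that carry bile acids and related organic anions and lipids across the hepatocyte membrane, 1 subunit of a further bile acid transporter, the bile acid receptor FXR and its target SHP. They were taken by symbol from a table of 37085 gene symbols: Abcb11, Abcb4, Abcc2, Abcc3, Slc51b, Slc10a1, Slco1b2, Slco1a4, Nr1h4 and Nr0b2. All 10 were present and all 10 were among the 11869 genes with enough counts to be tested. The samples were hepatocytes of C57BL/6 mice, isolated by collagenase perfusion and low-speed spins and then taken by a flow sorter through a gate that the labels do not describe, and reads from the 3' ends of polyadenylated RNA were counted. Of 25 libraries, 20 came from mice fed to induce non-alcoholic steatohepatitis (NASH, fatty liver with inflammation and scarring) for 1 week (4 libraries), 2 weeks (3), 3 weeks (4), 4 weeks (3), 5 weeks (3) or 6 weeks (3), and 5 from mice on normal diet. Neither diet's composition nor the mice's age and sex could be read from the labels, and no group has a named genetic change. Whether libraries stand for single mice is not stated either, so the p-values rest on the spread between libraries, which may be partly technical.

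Bile acids are made from cholesterol in hepatocytes, pumped into bile across the apical (canalicular) membrane, and taken back from portal blood across the basolateral membrane. FXR, a nuclear receptor that bile acids activate, works with its partner RXR: it raises the genes of the bile salt pump and of SHP, and SHP in turn represses bile acid synthesis. In cholestasis, when bile flow fails, hepatocytes are known to lower uptake and to raise the export of bile acids back into blood.

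Levels are given in CPM, a gene's counts scaled to the same total in every library, after correction for composition by TMM factors, and changes as log2 fold changes with their standard error (SE). A gene was called where the edgeR quasi-likelihood test gave a Benjamini-Hochberg adjusted p under 0.05 over all 11869 genes within a comparison. Each of the 6 weekly comparisons uses the same 5 normal-diet libraries. Totals ran between 5281140 and 10015800 counts per library. Scaling by library total alone moved the median change of all genes up by 0.12, 0.09, 0.10, 0.16, 0.34 and 0.30 at weeks 1 to 6 on the log2 scale, so every change below is relative to the composition-scaled median. With that scaling, 69, 46, 76, 1033, 3790 and 3269 genes were called higher and 82, 58, 55, 150, 364 and 229 lower at weeks 1 to 6. With TMM factors the same counts were 26, 27, 29, 644, 2268 and 1929 higher and 116, 78, 72, 339, 1929 and 1246 lower.

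All 10 hepatocyte markers, among them Alb, were detected in every group, and summed to between 89048 and 98095 CPM at week 5 and between 93655 and 101264 CPM at week 6, against 123093 to 133439 CPM on normal diet. This sum lay below that range at weeks 1, 3 and 4 too (101399 to 114072, 97989 to 115154 and 106177 to 119830 CPM). At week 2 the sum, at 100394 to 125869 CPM, overlapped with normal diet. Transcripts of other liver cells were present, and the sums of 4 of these 5 marker lists lay above the whole normal-diet range at weeks 5 and 6. The stellate cell sum did so at week 2 as well (245 to 404 CPM), and the stellate cell and leukocyte sums at week 4. The 12 Kupffer cell markers summed to 543 to 1194 CPM at week 4, 1724 to 1872 CPM at week 5 and 1440 to 1749 CPM at week 6, against 112 to 620 CPM on normal diet. The 12 sinusoidal endothelial markers summed to 460 to 1067 CPM at week 4, 1545 to 1764 CPM at week 5 and 1254 to 1568 CPM at week 6, against 170 to 681 CPM on normal diet. Both sums were highest at week 5, the week with the most calls among the 10 genes and also among all tested genes (35.4%). The 12 stellate cell markers summed to 287 to 653 CPM at week 4, 476 to 997 CPM at week 5 and 464 to 804 CPM at week 6, against 76.1 to 155 CPM on normal diet. The 12 leukocyte markers summed to 91.1 to 172 CPM at week 4, 262 to 313 CPM at week 5 and 261 to 288 CPM at week 6, against 24.7 to 86.7 CPM on normal diet. The 10 cholangiocyte markers summed to 50.1 to 59.4 CPM at week 6 and to 44.8 to 69.0 CPM on normal diet, mostly from Sox9. Of the 4 tested, 2 were called higher at each of weeks 4, 5 and 6, Spp1 (9.93 CPM at week 6, against 3.53 CPM on normal diet) and Bicc1 (4.19 CPM at week 6, against 0.887 CPM on normal diet), and Sox9 was called lower at week 4 (20.9 CPM, against 41.2 CPM on normal diet). Krt7 and Krt19, which define cholangiocytes, were at or near 0: each averaged 0.267 CPM at week 6, against 0 counts of Krt7 and 0.0581 CPM of Krt19 on normal diet. The part of these shifts in the results below was not tested.

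Against normal diet, 5 of the 10 genes passed the test at 1 or more weeks, and each of the 5 was lower. An exception came with library size alone, where Abcb4 was called higher at week 6. In edgeR with TMM factors, Abcc3 was called only at weeks 1 and 3, and Abcb11, Slc10a1 and Slc51b only at week 4 or later. Slco1a4 was called at weeks 1, 5 and 6. In bulk RNA of sorted cells, fewer cells of a kind and less RNA per cell cannot be told apart. At week 1, 2 of 10 were called, Slco1a4 and Abcc3, where 1.20% of all tested genes were called (0.977% lower). At week 2, 0 were called in edgeR (0.885% of all genes, 0.657% lower), with 3 at an unadjusted p under 0.05, 2 called in DESeq2 and 0 in limma voom. At week 3 only Abcc3 was called (0.851% of all genes, 0.607% lower) and at week 4 only Abcb11 (8.28%, 2.86% lower), 1 of 10 at each. At week 5, 4 of 10 were called lower, Abcb11, Slc10a1, Slco1a4 and Slc51b, where 35.4% of all genes were called and 16.3% were called lower. At week 6, 3 of 10 were called lower, Abcb11, Slc10a1 and Slco1a4, where 26.8% of all genes were called and 10.5% were called lower. The median log2 fold change of the 10 genes was -0.19, -0.32, -0.23, -0.16, -0.41 and -0.53 at weeks 1 to 6, against 0.02, 0.00, 0.02, -0.01, -0.05 and -0.05 over all tested genes. The 10 hepatocyte markers had medians of -0.16, -0.15, -0.14, -0.22, -0.53 and -0.44 at weeks 1 to 6. Of these markers, 7 were called lower at each of weeks 5 and 6, so the late fall was not particular to the genes described here.

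Counted by libraries that do not overlap, 2 of 10 genes had all libraries below normal diet at week 1 (2.85% of all tested genes), namely Abcc3 and Slco1a4. It was Abcc3 at week 2 (3.77%) and at week 3 (3.19%) and Abcb11 at week 4 (6.65%), 1 of 10 each. At week 5 there were 3, Abcb11, Slc10a1 and Nr1h4 (18.2% of all genes), and at week 6 there were 2, Abcb11 and Slc10a1 (10.6%).

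**Figure D1:**
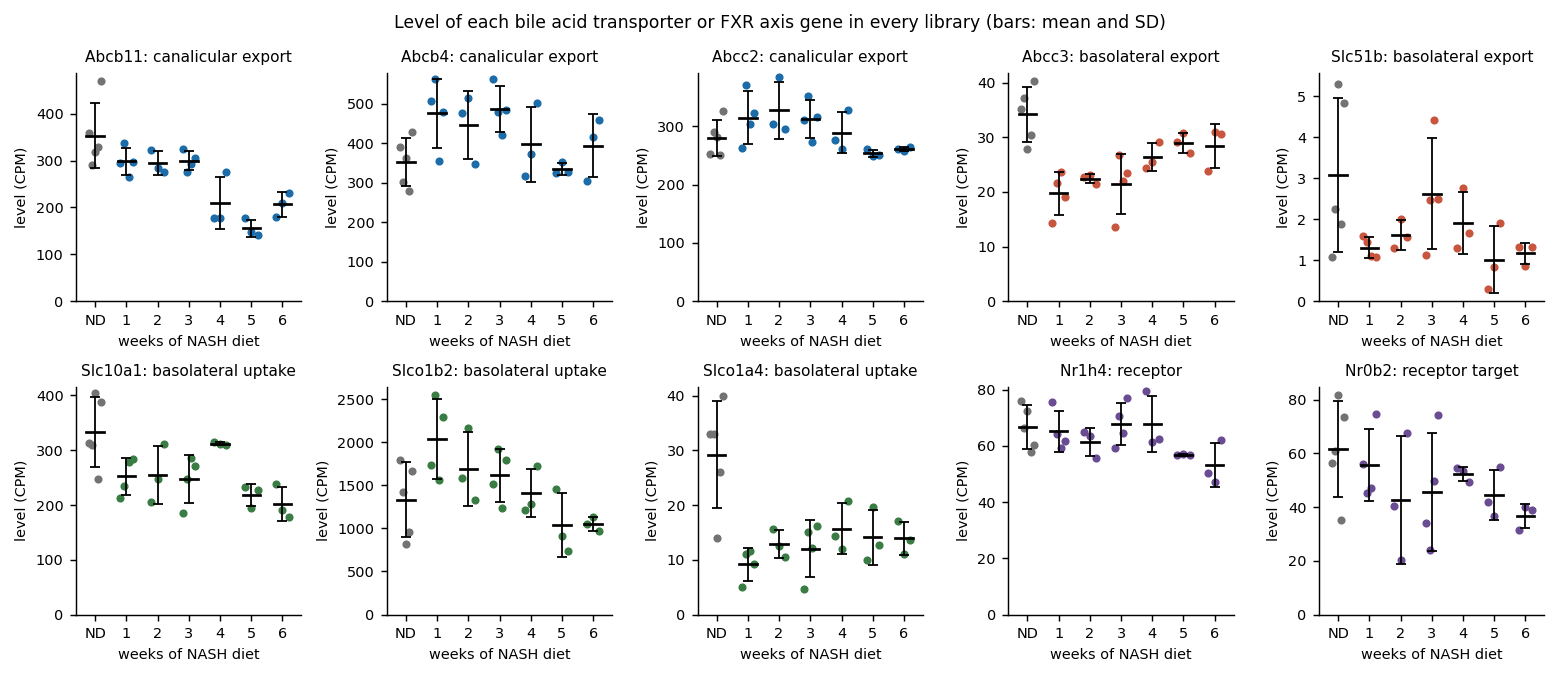
Level of each gene in CPM (vertical axis, from 0) on normal diet (ND, grey) and after 1 to 6 weeks of NASH diet (coloured by role). Points are libraries, and black bars are the group mean and SD. Abcb11 lies lowest at week 5, between 142 and 177 CPM, while Slco1a4 lies below its normal-diet mean of 29.2 CPM in every NASH diet library.

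Promoters are shown for the bile salt pump Abcb11 and the uptake carrier Slco1b2, the 2 members with a match to the marked repeat. That of Abcb4, which works beside Abcb11 at the canalicular membrane and has no match, is shown with them. Whether a match bears on the change of any gene was not tested. Each is the stretch from 250 bases before to 50 after a listed start site, build GRCm38.p6, 5′ to 3′ on the gene's strand. That site is the gene's outer end in the RefSeq gene table for Abcb11, but not for Abcb4 or Slco1b2. These positions belong to that build and not to the GRCm39 build named for the counts. FXR with RXR is known to bind an inverted repeat of the half-site AGGTCA with 1 base between. Capitals mark a match to a looser form, an inverted repeat of GGNCA with 1 base between, searched on both strands.
Abcb11 (chr2:69342567-69342866, minus strand): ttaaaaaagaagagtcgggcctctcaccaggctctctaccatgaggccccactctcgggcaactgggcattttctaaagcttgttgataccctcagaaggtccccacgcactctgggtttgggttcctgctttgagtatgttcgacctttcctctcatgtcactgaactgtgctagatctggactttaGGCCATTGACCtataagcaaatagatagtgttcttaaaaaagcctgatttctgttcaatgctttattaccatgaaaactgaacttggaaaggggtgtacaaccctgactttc
Slco1b2 (chr6:141629268-141629567, plus strand): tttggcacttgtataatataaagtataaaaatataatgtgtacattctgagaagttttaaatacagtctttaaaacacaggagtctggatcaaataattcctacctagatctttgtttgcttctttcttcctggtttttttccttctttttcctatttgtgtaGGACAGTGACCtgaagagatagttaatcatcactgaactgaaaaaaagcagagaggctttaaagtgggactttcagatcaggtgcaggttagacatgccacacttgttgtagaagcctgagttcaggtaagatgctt
Abcb4 (chr5:8893471-8893770, plus strand): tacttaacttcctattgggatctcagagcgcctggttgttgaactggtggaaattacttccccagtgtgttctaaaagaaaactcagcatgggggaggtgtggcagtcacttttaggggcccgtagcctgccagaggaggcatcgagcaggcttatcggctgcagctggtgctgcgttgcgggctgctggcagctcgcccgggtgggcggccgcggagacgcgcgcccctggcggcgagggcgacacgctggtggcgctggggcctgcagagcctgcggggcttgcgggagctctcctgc
The match begins 62 bases before the start site of the Abcb11 window and 87 bases before that of the Slco1b2 window. In both it overlaps a match to the half-site AGGTCA on the other strand.

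A promoter sequence was at hand for 9 of the 10 genes, all but Abcc3. These 9 genes had 10 windows, as Slc10a1 had another with a different start site. The looser repeat was in 0.676% of all 32851 promoters of this length, and among the members in Abcb11 and Slco1b2. The strict inverted repeat of AGGTCA was in 0.00913% of promoters and in 0 of the members' windows, and the looser form was chosen after that search. The single half-site AGGTCA was in 16.3% of all promoters and in those of 6 members: Abcb11, Slco1b2, Slc51b, Nr1h4, Slc10a1 and Abcc2. For Slc10a1 the half-site was only in the window at chr12:80968030-80968329, whose start site is not the gene's outer end, and not in its other window. Of the other motifs searched, CAAGGNCA, a form of the site of the receptor LRH-1, was in 6.71% of promoters and in that of Nr0b2. CAAAGTCCA, an HNF4 site, was in 0.475% and the inverted repeat of GTTAAT with 1 base between, an HNF1 site, in 0.00913%, each with 0 members. These matches describe letters in these windows.

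Of the 3 canalicular exporters, Abcb11 was called lower at weeks 4 to 6, and Abcb4 and Abcc2 were called at no week. Abcb11 encodes the bile salt export pump, which carries conjugated bile salts into bile and sets the pace of bile salt secretion. Its level was 360, 289, 317, 329 and 469 CPM in the 5 normal-diet libraries, 177, 178 and 275 CPM at week 4, 177, 148 and 142 CPM at week 5 and 179, 210 and 232 CPM at week 6. From week 4 on, each NASH diet library lay below the lowest normal-diet library. At weeks 1, 2 and 3 the libraries lay between 265 and 337 CPM, within or just under the normal-diet range. The mean was 156 ± 18.5 CPM at week 5 (SD, n = 3), against 353 ± 69.8 CPM on normal diet (SD, n = 5), which is 2.27-fold lower in the fit.

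Abcb11 fell by 0.75 ± 0.15 at week 4, by 1.18 ± 0.16 at week 5 and by 0.77 ± 0.15 at week 6 (log2, SE; adjusted p = 0.00570, 9.4e-06 and 6.5e-04). At weeks 1 to 3 the values were -0.24 ± 0.14, -0.26 ± 0.15 and -0.23 ± 0.14, none of them called (adjusted p from 0.469 to 0.577). In the order of group means, normal diet, week 3, week 1 and week 2 came first with neighbours closer than their SD, then came week 4 and week 6, again closer than their SD, and week 5 was lowest. The week 4 call was lost without week 4 library 1 (adjusted p = 0.0712) or library 2 (0.0511), without both normal-diet libraries 1 and 5 (0.0528), and in a fit of those 2 groups alone (0.0782). The calls at weeks 5 and 6 held in each of the 8 fits that left out 1 library of the compared groups, with adjusted p up to 1.9e-04 and 0.00921.

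Abcb4 encodes the floppase that moves phosphatidylcholine into bile, where it shields the ducts from bile salts. It stood at 390, 301, 363, 279 and 428 CPM on normal diet, between 348 and 562 CPM at weeks 1 to 3 and between 305 and 502 CPM at weeks 4 to 6. The groups overlapped at every week. Its log2 changes were 0.43 ± 0.16, 0.34 ± 0.17 and 0.47 ± 0.16 at weeks 1 to 3 and 0.18 ± 0.17, -0.07 ± 0.17 and 0.16 ± 0.17 at weeks 4 to 6 (SE), and none was called (adjusted p from 0.199 to 0.783). With library size alone the week 6 value was called higher (0.46, adjusted p = 0.0287). At week 5 the 95% interval of the change ran from -0.43 to 0.29.

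Abcc2, which encodes the canalicular exporter of bilirubin glucuronides and other conjugates (MRP2), kept between 250 and 384 CPM in all 25 libraries. The groups overlapped at each week, and its changes lay between -0.14 and 0.23, none called (adjusted p from 0.389 to 0.876). At week 6 the 95% interval ran from -0.35 to 0.15.

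Because Abcb11 and Abcb4 are counted in the same library, the ratio of their counts does not depend on how libraries are scaled. The ratio was 0.923, 0.963, 0.873, 1.18 and 1.10 on normal diet. Week 1 had ratios of 0.581, 0.600, 0.746 and 0.619, week 2 of 0.680, 0.555 and 0.792, and week 3 of 0.578, 0.577, 0.697 and 0.633. Week 4 had ratios of 0.559, 0.476 and 0.547, week 5 of 0.544, 0.420 and 0.435, and week 6 of 0.587, 0.504 and 0.505. All 20 NASH diet libraries lay below all 5 normal-diet libraries, from week 1 on, although neither gene was called by itself in the first 3 weeks. At weeks 1, 2 and 3 the uncalled log2 changes were 0.43, 0.34 and 0.47 for Abcb4 and -0.24, -0.26 and -0.23 for Abcb11. These values were larger in size for Abcb4 than for Abcb11, but unlike the ratio they depend on how libraries are scaled. The part of each gene in the early shift of the ratio was not tested. How many other gene pairs separate in this way was not counted. The mean of the log2 ratio differed from that on normal diet by -0.66, -0.58, -0.69, -0.93, -1.11 and -0.91 at weeks 1 to 6.

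The ratio of Abcb11 to Abcc2 was lower too, without overlap at weeks 4, 5 and 6, where its means were 0.719 ± 0.102, 0.613 ± 0.0574 and 0.790 ± 0.0954 (SD, n = 3 each), against 1.26 ± 0.192 on normal diet (SD, n = 5). In all, 16 of 20 NASH diet libraries lay below the normal-diet range for this pair. The pairs were chosen after the levels of the genes were seen, so these ratios are given as a description, with no test.

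**Figure D2:**
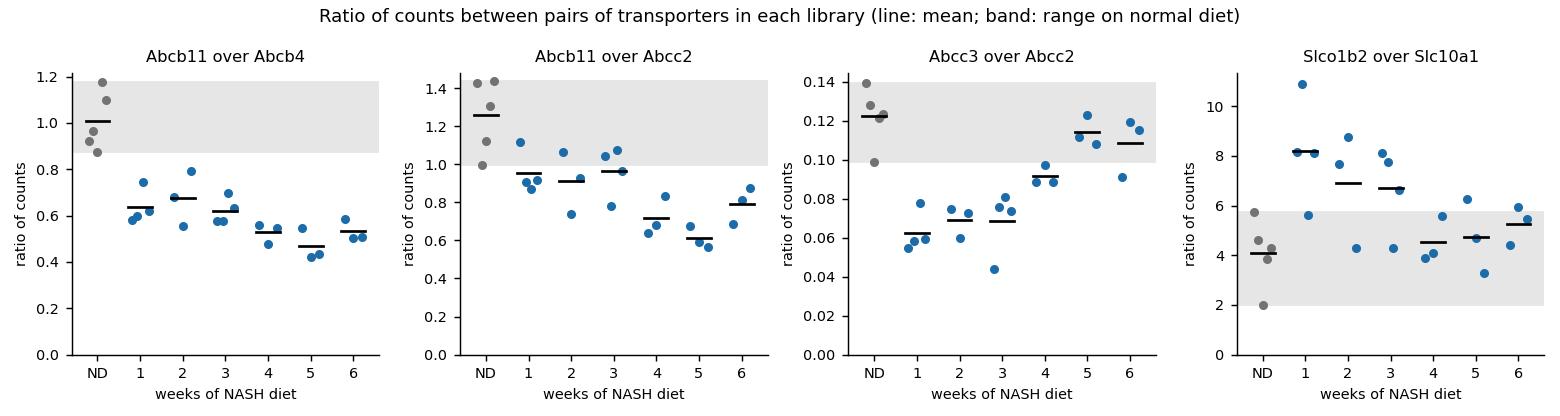
Ratio of the counts of 2 genes within each library (vertical axis, from 0) on normal diet (ND, grey) and after 1 to 6 weeks of NASH diet (blue), for 4 pairs of transporters. Lines are group means and the grey band spans the normal-diet libraries; for Abcb11 over Abcb4, all 20 NASH diet libraries lie below the band, between 0.420 and 0.792.

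The 2 basolateral export genes had lower group means than on normal diet at every week, and few of these differences were called. Abcc3 encodes MRP3, which returns bile acid and bilirubin conjugates to blood, and is a known target of the xenobiotic receptor CAR. It stood at 35.2, 37.1, 27.9, 30.5 and 40.4 CPM on normal diet, 14.4, 21.7, 23.6 and 19.1 CPM at week 1, 22.7, 23.0 and 21.5 CPM at week 2 and 13.6, 26.7, 22.0 and 23.4 CPM at week 3. Each library of these weeks lay below the lowest on normal diet. At weeks 4, 5 and 6 the libraries lay between 23.8 and 30.9 CPM and the groups overlapped.

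Abcc3 fell by 0.79 ± 0.16 at week 1 (log2, SE; adjusted p = 0.00743) and by 0.67 ± 0.16 at week 3 (0.0423), with -0.61 ± 0.17 at week 2 (0.124, but called in DESeq2 with 0.0483) and -0.37 ± 0.17, -0.24 ± 0.17 and -0.27 ± 0.17 at weeks 4 to 6 (0.183 to 0.299). Across the 6 weeks it had a positive slope, of 0.12 ± 0.03 log2 units a week (adjusted p = 0.00526), where 18.9% of all genes had a called positive slope. The week 1 call was lost without week 1 library 1 (0.0525) and without both normal-diet libraries 1 and 5 (0.0816), and the week 3 call without normal-diet library 1 (0.0773), 2 (0.0993) or 5 (0.110) or week 3 library 1 (0.169), 3 (0.0838) or 4 (0.0523), with library size alone (0.107) and in a fit of those 2 groups alone (0.149). At weeks 5 and 6 library size alone put the uncalled values above 0, at 0.10 and 0.035. Its ratio to Abcc2, the canalicular exporter of like cargo, averaged 0.0625 ± 0.0103 at week 1 (SD, n = 4) and 0.109 ± 0.0153 at week 6 (SD, n = 3), against 0.122 ± 0.0148 on normal diet (SD, n = 5). That ratio lay below the normal-diet range in 15 of 20 NASH diet libraries, with no overlap at weeks 1 to 4.

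Slc51b encodes the beta subunit of the heteromeric organic solute transporter (OST), a basolateral bile acid exporter that FXR is known to induce. Its counts were low, 3 to 34 per library, so its values carry a large counting error. It stood at 0.292, 0.834 and 1.90 CPM at week 5, against 1.09, 2.24, 5.30, 1.89 and 4.83 CPM on normal diet, and the groups overlapped. It fell by 1.61 ± 0.52 at week 5 (log2, SE; adjusted p = 0.0177) and stood at -1.36 ± 0.52 at week 6 (0.0525). The week 5 call was lost without normal-diet library 3 (0.0617) or 5 (0.0553) and without week 5 library 1 (0.115) or 2 (0.0681), with library size alone (0.0589) and in a fit of those 2 groups alone (0.0795). The week 6 value was called without normal-diet library 1 (0.0240) or 4 (0.0370), with no filter on low counts (0.0469) and in DESeq2 (0.0431). Slc51a, the gene of the alpha subunit that the beta subunit needs at the membrane, had 5 counts in all 25 libraries and was not tested.

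Of the 3 uptake genes of the basolateral membrane, Slc10a1 and Slco1a4 were called lower at late weeks and Slco1b2 at none. Slc10a1 encodes NTCP, the sodium-dependent carrier that takes up most conjugated bile acids. It stood at 233, 195 and 228 CPM at week 5 and 238, 191 and 179 CPM at week 6, against 313, 309, 405, 248 and 388 CPM on normal diet. At both weeks each library lay below the lowest on normal diet. At week 4 it stood at 314, 312 and 310 CPM, near the normal-diet middle, and at weeks 1 to 3 between 186 and 311 CPM.

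Slc10a1 fell by 0.60 ± 0.16 at week 5 and by 0.71 ± 0.16 at week 6 (log2, SE; adjusted p = 0.00544 and 0.00212), and both calls held in each fit that left out 1 library. With library size alone the values were -0.26 (0.203) and -0.40 (0.0559), no longer called. At weeks 1 to 4 the values were -0.40 ± 0.15, -0.38 ± 0.16, -0.42 ± 0.15 and -0.09 ± 0.16, none called (0.214 to 0.785). The fall at weeks 5 and 6 stood beside a lower sum of the 10 hepatocyte markers, 93791 ± 4539 CPM at week 5 and 97149 ± 3842 CPM at week 6 (SD, n = 3 each), against 129033 ± 4173 CPM on normal diet (SD, n = 5). The sum was below the normal-diet range at weeks 1, 3 and 4 too. At week 4 the sum was 111241 ± 7478 CPM (SD, n = 3) and the change of Slc10a1 was -0.09. Whether the marker sum bears on the change of Slc10a1 was not tested.

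Slco1a4 encodes OATP1A4, a sodium-independent carrier of bile acids, steroid conjugates and drugs, and is a known target of the xenobiotic receptor PXR in mice. It stood at 4.96, 11.0, 11.5 and 9.17 CPM at week 1, against 33.0, 33.0, 14.0, 26.1 and 39.9 CPM on normal diet. All week 1 libraries lay below all normal-diet libraries, of which library 3 was the lowest. The later weeks held between 4.65 and 20.8 CPM and overlapped with that library.

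Slco1a4 fell by 1.66 ± 0.33 at week 1 (log2, SE; adjusted p = 0.00904), which is 3.15-fold lower, by 1.05 ± 0.35 at week 5 (0.0226) and by 1.05 ± 0.35 at week 6 (0.0289). The values at weeks 2, 3 and 4 were -1.18 ± 0.36 (0.154), -1.26 ± 0.33 (0.0696) and -0.89 ± 0.34 (0.112). Without normal-diet library 3 these 3 were called as well (0.0422, 0.0135 and 0.0404), and DESeq2 called weeks 2 and 3 (0.0429 and 0.00848). The week 1 call held in each fit that left out 1 library, and was lost without both normal-diet libraries 1 and 5 (0.0842) and with the replicate number as a block (0.0519). The week 5 call was lost without normal-diet library 5 (0.0693) or week 5 library 1 (0.112) or 3 (0.0764) and the week 6 call without normal-diet library 1 (0.0546), 2 (0.0519) or 5 (0.0757) or week 6 library 2 (0.106) or 3 (0.0809). Both were lost with library size alone (0.132 and 0.129), with no filter on low counts (0.0551 and 0.0604), without both normal-diet libraries 1 and 5 (0.127 and 0.148), and with the replicate block (0.0866 and 0.125), and week 5 also in a fit of those 2 groups alone (0.0515).

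Slco1b2 encodes OATP1B2, the mouse carrier of unconjugated bile acids and bilirubin conjugates. It stood at 1798, 1427, 813, 954 and 1672 CPM on normal diet, 1734, 2553, 1566 and 2298 CPM at week 1, 1461, 914 and 743 CPM at week 5 and 1047, 1137 and 975 CPM at week 6. The groups overlapped with normal diet at each week, and no week was called against it (0.61 ± 0.23 at week 1, adjusted p = 0.273, to -0.36 ± 0.25 at week 5, 0.294). Within the NASH diet groups it declined: its slope was -0.20 ± 0.05 log2 units a week (adjusted p = 0.00172, 14.9% of all genes with a called negative slope), and it fell by 0.95 ± 0.27 at week 6 against week 1 (0.0185), where 16.5% of all genes were called and 5.00% were called lower.

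All week 6 libraries of Slco1b2 lay below all week 1 libraries. That call was lost without week 1 library 2 (0.0605) or 4 (0.0517) or week 6 library 1 (0.0656) or 3 (0.0665), while the slope held in each of the 20 fits without 1 library. Its count ratio to Slc10a1 averaged 8.19 ± 2.15 at week 1 (SD, n = 4) and 5.27 ± 0.783 at week 6 (SD, n = 3), against 4.10 ± 1.37 on normal diet (SD, n = 5), and lay above the normal-diet range in 10 of 20 NASH diet libraries. Slco1b2 and Slco1a4 sit in one cluster of related genes on chromosome 6, so reads shared between these relatives could make their separate values uncertain.

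Nr1h4, the gene of FXR itself, lay between 47.3 and 79.4 CPM in all 25 libraries. It stood at 56.7, 57.0 and 56.6 CPM at week 5 and 50.3, 47.3 and 62.0 CPM at week 6, against 76.1, 66.5, 72.5, 57.7 and 60.3 CPM on normal diet. Week 5 lay just below the lowest normal-diet library and week 6 overlapped with it. Its changes were -0.03 ± 0.11, -0.12 ± 0.12, 0.03 ± 0.11, 0.03 ± 0.12, -0.23 ± 0.12 and -0.32 ± 0.12 at weeks 1 to 6 (log2, SE; adjusted p from 0.0557 at week 6 to 0.959), and none was called. Without normal-diet library 4 (0.0332) or week 6 library 3 (0.0218), and in limma voom (0.0497), the week 6 value was called lower. Its slope over the weeks was called without week 4 library 1 (0.0485) or week 6 library 3 (0.0269).

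Nr0b2 encodes SHP, the repressor that FXR induces. It varied more between libraries than Nr1h4: it stood at 40.3, 20.3 and 67.6 CPM at week 2 and 31.4, 39.8 and 38.9 CPM at week 6, against 56.3, 60.8, 81.7, 35.0 and 73.5 CPM on normal diet. The groups overlapped at each week. Its values were -0.14 ± 0.31, -0.51 ± 0.34, -0.42 ± 0.31, -0.23 ± 0.34, -0.46 ± 0.34 and -0.74 ± 0.35 at weeks 1 to 6 (log2, SE), and none was called (adjusted p from 0.123 to 0.929). At week 6 the 95% interval ran from -1.46 to -0.03, before any adjustment over genes.

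**Figure D3:**
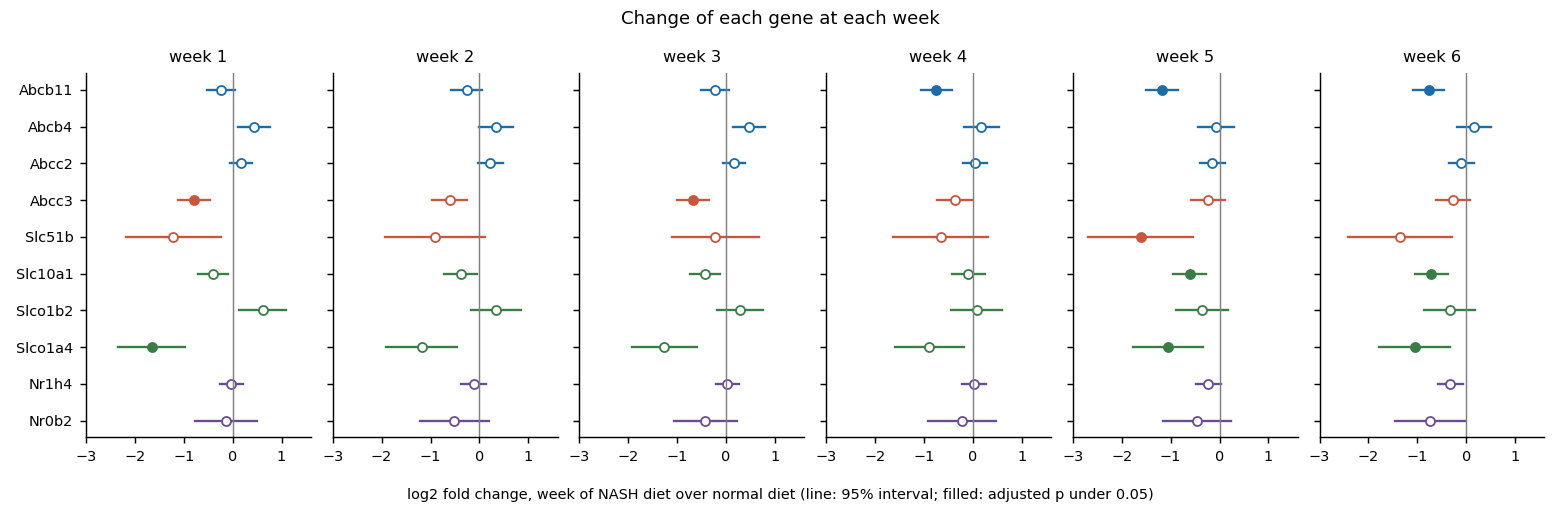
Log2 fold change of each gene (horizontal axis) at weeks 1 to 6 of NASH diet over normal diet, with 95% intervals as lines. Filled points are called at an adjusted p under 0.05; the 11 filled points all lie left of 0, with Slco1a4 and Abcc3 at week 1 and Abcb11, Slc10a1, Slco1a4 and Slc51b at week 5.

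Among the NASH diet weeks themselves, Abcb11 and Slco1b2 differed between weeks (any difference among weeks 1 to 6, adjusted p = 4.6e-04 and 0.0381, where 23.2% of all genes were called). For Abcb11 this held in each of the 20 fits without 1 library (up to 0.00359). For Slco1b2 it was lost without any of 10 libraries, week 1 library 2 (0.0897) or 4 (0.0842), week 2 library 1 (0.0502), week 3 library 1 (0.0513), week 4 library 2 (0.0543), week 5 library 2 (0.1003) or 3 (0.0889), and week 6 library 1 (0.0751), 2 (0.0557) or 3 (0.0761), and with library size alone (0.156), all counted genes kept (0.0846) or the filter raised to 5 CPM in 3 libraries (0.0547). Abcc3, not called here (0.0743), was called with library size alone (0.00671), in DESeq2 (0.0156), with DESeq2 size factors in edgeR (0.0455), with the raised filter (0.0497) and without week 1 library 3 (0.0480) or week 3 library 2 (0.0447). Slc10a1 (0.108) was called with all counted genes kept (0.0441). Over the weekly means, 5 of 10 members had a called slope, where 33.9% of all genes did. Abcb11 declined by 0.17 ± 0.03 log2 units a week (SE; adjusted p = 5.9e-05), and Slco1b2, Abcc2 (-0.07 ± 0.02, 0.0117) and Abcb4 (-0.08 ± 0.03, 0.0444) also had negative slopes, while that of Abcc3 was positive. The Abcb4 slope was lost in 13 of the 20 fits that left out 1 library (adjusted p up to 0.193 without week 6 library 1) and in DESeq2 (0.0624), with its size factors in edgeR (0.0673) and with the stricter filter of 5 CPM in 3 libraries (0.0839). With library size alone the slopes of Abcb4 and Abcc2 were no longer called (0.387 and 0.397).

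At week 6 against week 1, 3 members were called: Abcb11 fell by 0.53 ± 0.16 (0.0241), Slco1b2 fell as given above, and Abcc3 rose by 0.52 ± 0.18 (0.0453), where 11.5% of all genes were called higher. Their libraries did not overlap, as in 9.37% of all genes downward and 15.3% upward, and Nr0b2 too lay lower at week 6 in all libraries without being called (-0.60 ± 0.36, 0.280), though a fit of those 2 groups alone called it lower (0.0469). Of the 3 called, Abcb11 was not called without week 1 library 2 (0.0765) or 4 (0.0509) or week 6 library 1 (0.142) or 2 (0.0518), or with library size alone (0.102), and Abcc3 not without week 1 library 1 (0.141), 2 (0.0603) or 4 (0.0974) or week 6 library 2 (0.134) or 3 (0.132), with no filter on low counts (0.0726) or in a fit of those 2 groups alone (0.0957). At week 6 Abcb11 stood at 179, 210 and 232 CPM, below all week 1 libraries at 294, 337, 265 and 297 CPM.

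Genes around the members were counted from lists of other carriers, synthesis enzymes, FXR partners and other reported FXR targets. Among other carriers of bile acids, organic anions and bile lipids, 2 of 16 tested genes were higher and 1 lower at week 1, where 0.219% of all genes were called higher and 0.977% lower. At week 6, 3 of the 16 were higher and 4 lower, where 16.3% of all genes were higher and 10.5% lower, so the share called higher was near that of all genes. Abcg8, a subunit of the canalicular cholesterol exporter, rose by 1.18 ± 0.25 at week 1 and by 1.39 ± 0.27 at week 6 (log2, SE; adjusted p = 0.0148 and 5.6e-04). Abcc4, the gene of the basolateral exporter MRP4, which carries bile acids together with glutathione, rose by 1.56 ± 0.41 at week 6 (0.00600). Its level was low, with a group mean of 1.78 CPM on normal diet and 5.54 CPM at week 6, and 633 counts in all 25 libraries. Slco2a1, a prostaglandin carrier that endothelial cells express, fell by 0.69 ± 0.12 at week 1 and by 1.04 ± 0.14 at week 6 (0.00201 and 1.5e-05). The endothelial marker sum was 299 to 550 CPM at week 1, within the normal-diet range, and above that range at week 6. Abcg2, an exporter of sulfate conjugates and drugs, rose by 0.64 ± 0.12 at week 1 (0.00345), and Tmem30a, which encodes the partner subunit of the phospholipid flippase Atp8b1, fell by 0.40 ± 0.10 at week 6 (0.00305). The list's median was 0.09 at week 1 and -0.25 at week 6, against 0.02 and -0.05 over all genes, and library size alone left 4 higher and 1 lower at week 6, without Tmem30a (0.516), whose call was also lost in a fit of those 2 groups alone (0.0560). The Abcg8 call at week 1 was lost without week 1 library 2 (0.0794), without both normal-diet libraries 1 and 5 (0.0783) and, like that of Slco2a1, in a fit of those 2 groups alone (0.112 and 0.0548), and the Abcc4 call without both normal-diet libraries 1 and 5 (0.0514).

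Of 16 tested enzymes of bile acid synthesis and conjugation, 1 was lower at each of weeks 1 and 3, 4 at week 4, 9 at week 5 and 8 at week 6, and at none of these weeks was one called higher. Of all genes, 0.977%, 0.607%, 2.86%, 16.3% and 10.5% were called lower at weeks 1, 3, 4, 5 and 6. The list's median was -0.48 at week 6, against -0.05 over all genes. Cyp27a1, which opens the acidic route by sterol 27-hydroxylation, fell by 1.17 ± 0.19 at week 6 (log2, SE; adjusted p = 1.0e-04). Cyp7b1, the next hydroxylase of that route, fell by 1.47 ± 0.31 (0.00143) and Cyp39a1, an oxysterol hydroxylase, by 1.53 ± 0.33 at week 6 (0.00110) and 1.40 ± 0.29 at week 1 (0.00984). Slc27a5, whose product activates bile acids with coenzyme A, fell by 0.51 ± 0.12 at week 6 (0.00259). Cyp7a1, the rate-limiting enzyme of the classical route, which SHP represses, was looked up outside the naming rule after its values were seen. It stood at 1.07 ± 0.41 at week 3 and -0.16 ± 0.46 at week 6, neither called (0.277 and 0.830). With library size alone, 3 of the 16 enzymes were lower and 0 higher at week 6, without Slc27a5 (0.154), and the week 1 call of Cyp39a1 was lost without week 1 library 3 (0.0602), without both normal-diet libraries 1 and 5 (0.0794), with the replicate block (0.0510) and in a fit of those 2 groups alone (0.0698).

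FXR's partners and cofactors had 0 of 23 called at each of weeks 1 to 4 in edgeR, DESeq2 and limma voom, with 3, 3, 1 and 2 at an unadjusted p under 0.05 in edgeR. At week 5, 2 were higher and 5 lower, where 19.1% of all genes were higher and 16.3% lower, and at week 6, 1 was higher and 2 lower, where 16.3% of all genes were higher and 10.5% lower. The shares called lower were near those of all genes. Those lower at week 6 were Ppargc1a, a coactivator of nuclear receptors, which fell by 0.93 ± 0.25 (log2, SE; adjusted p = 0.00750), and Hnf4a, a receptor that sustains the hepatocyte programme and is also 1 of the 10 hepatocyte markers, which fell by 0.44 ± 0.15 (0.0283). S1pr2, a cell surface receptor that conjugated bile acids can activate, rose by 0.70 ± 0.22 (0.0173). Its group mean was 4.51 CPM on normal diet and 7.29 CPM at week 6. The Hnf4a call was lost without normal-diet library 1 (0.0881) or week 6 library 1 (0.105) or 2 (0.0820), without both normal-diet libraries 1 and 5 (0.121) and in a fit of those 2 groups alone (0.0766). That of S1pr2 was lost without week 6 library 3 (0.0632) and in a fit of those 2 groups alone (0.0616). Library size alone left 4 partners higher and 0 lower at week 6, without Ppargc1a (0.0726) and Hnf4a (0.529).

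Of 14 other reported FXR targets, 2 were higher and 6 lower at week 5, where 19.1% of all genes were higher and 16.3% lower, and 1 was higher and 7 lower at week 6, where 16.3% of all genes were higher and 10.5% lower. Cyp7a1 and Cyp8b1 are in this list and also among the synthesis enzymes above, so these counts are not separate. The list holds genes that FXR induces, such as Apoc2, and also Cyp7a1, which SHP represses, so the counts have no single reading as FXR output. Apoc2, an activator of lipoprotein lipase that FXR induces, rose by 0.74 ± 0.15 at week 6 (log2, SE; adjusted p = 8.9e-04), while Fetub (0.70 ± 0.14 lower, 6.6e-04), Ugt2b1, a glucuronosyltransferase (0.73 ± 0.17 lower, 0.00183), and Sult2a8, a bile acid sulfotransferase of mouse liver (0.94 ± 0.26 lower, 0.00826), fell. Sult2a8 was not called without week 6 library 2 (0.0504), without both normal-diet libraries 1 and 5 (0.0730), with library size alone (0.0629) or in a fit of those 2 groups alone (0.0854). Library size alone left 3 targets higher and 2 lower at week 6.

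**Figure D4:**
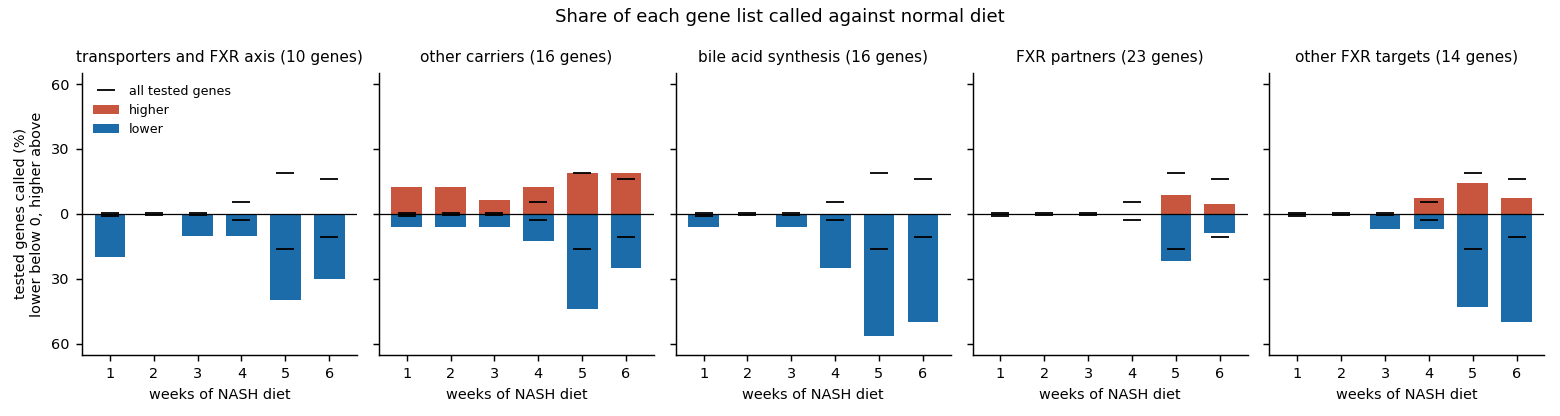
Percent of the tested genes of each list that were called against normal diet (vertical axis; higher above 0 in red, lower below 0 in blue) at weeks 1 to 6 of NASH diet; black dashes give the same percent over all tested genes. For the transporters and FXR axis all bars are below 0, with 4 of 10 genes at week 5.

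To show which genes ran most like the called members, levels of up to 6212 genes averaging 10 CPM or more were compared over the 25 libraries, each centred on its own mean, by the root mean square difference in log2 CPM. Nearest to Abcb11 were Cfhr4 (0.157), Ceacam1 (0.159) and Epb41l5 (0.164), where the spread of Abcb11 itself was 0.430 (SD). Close to Slc10a1 were Mthfd1 (0.159) and Idh3b (0.160), with an SD of 0.316. For Abcc3 they were S100a13 (0.233), Emc9 (0.254) and Spc24 (0.257), with an SD of 0.364. Slco1a4 and Slc51b had looser neighbours: Gstt2 (0.384), Akr1c19 (0.391) and Sult1a1 (0.407) for Slco1a4 (SD 0.717), and Asl (0.461), Hal (0.471) and Arg1 (0.474) for Slc51b (SD 0.732), whose counting error at this depth is large.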

How the data were processed

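Per the labels, 3' end libraries were prepared from sorted mouse hepatocytes by QuantSeq 3' FWD. Tools listed in the submitters' processing notes are FastQC, cutadapt and STAR 2.7.1a, with build GRCm39; a counting tool, its annotation and its use of strand were not found in those notes. The table the authors deposited gives whole-number counts, not normalized, by gene symbol and library, with 5281140 to 10015800 counts per library. Columns were matched to samples by week and replicate number. The columns of the NASH diet groups are headed WD, where the sample titles say NASH. That both names mean the same diet was assumed.

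From these counts, edgeR 4.0.16 (R 4.3.3) fitted one model of 7 groups over 25 libraries (18 residual degrees of freedom) with filterByExpr, TMM factors and robust quasi-likelihood tests; log2 levels used a prior count of 2. The SE is the change over the square root of F. Scripts were tested on simulated data. No library pair within a group was a copy (chi-squared over degrees of freedom 5.67 to 33.5). Alternatives were DESeq2 1.42.0 or limma 3.58.1 (voom), other size factors or filters, fewer samples, and a replicate block.

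The 10 genes, the other lists and the pair of normal-diet libraries left out together were chosen with earlier results of these data known. From each other list, up to 4 called genes with the smallest p at week 6 and up to 3 at week 1 are named. For each called member the 3 genes nearest to it in level are named, except 1 that is not reported here.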

Additional observations from a re-analysis of the deposited data

Results flagged for a closer look

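By the edgeR test of any difference among weeks 1 to 6, the change on NASH diet differed between weeks for 2 of 10 genes. They were Abcb11 (adjusted p = 4.6e-04) and Slco1b2 (adjusted p = 0.0381). The shared normal-diet libraries drop out of the weeks compared in this test, but still enter the model's estimate of the spread. With library size alone Slco1b2 was not called (0.156) and Abcc3 was (0.00671), as it was in DESeq2 (0.0156), with DESeq2 size factors in edgeR (0.0455) and with the filter raised to 5 CPM in 3 libraries (0.0497). Abcb11 averaged 298 ± 29.6 CPM at week 1 (SD, n = 4), 156 ± 18.5 CPM at week 5 (SD, n = 3) and 207 ± 26.4 CPM at week 6 (SD, n = 3). Slco1b2 averaged 2038 ± 465 CPM at week 1 (SD, n = 4), 1039 ± 375 CPM at week 5 (SD, n = 3) and 1053 ± 81.4 CPM at week 6 (SD, n = 3). In the groups of 4 or 5 libraries, 30 sets of values were checked for a single library far from the others, and 0 were found.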

How the results depend on the processing

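Of 80 changes of single genes, 19 were called. None of the 19 changed sign under any alternative run, 9 kept their call in every fit that left out 1 library, and 5 kept it under every alternative: Abcb11 at weeks 5 and 6 and the slopes of Abcb11, Abcc3 and Slco1b2. Over all alternatives, 1338 of 1461 values kept their direction and side of the threshold, 78 lost the call, 17 gained it and 28 changed sign, all of the 28 in changes that were not called. The causes of these shifts were not tested.

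The number of genes called out of 10 moved as follows. With library size alone it was 0 at week 3, 1 at week 5 and 3 for the slope. DESeq2 called 2 at week 2 and 2 at week 3. In a fit of only the groups compared it was 0 at week 3, 0 at week 4 and 2 at week 5. Without normal-diet libraries 1 and 5 together it was 0 at weeks 1, 3 and 4. Leaving out 1 library gave 1 to 2 at week 1, 0 to 1 at week 2, 0 to 2 at week 3, 0 to 2 at week 4, 2 to 4 at week 5, 2 to 5 at week 6, 0 to 3 for week 6 against week 1, 4 to 6 for the slope and 1 to 3 for any difference among weeks.

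The labels number the libraries of each group without saying what a shared number means, and same-numbered libraries did not deviate together (66 pairs, correlation from -0.44 to 0.41, median -0.01, 14 of them over 0.1; 11 of 24 libraries were closer to their own number). With the replicate number as a block, 1 gene was called at week 1, where Slco1a4 was lost (adjusted p = 0.0519), and 0 at week 3, where Abcc3 was lost (0.0741), and the Slco1a4 calls at weeks 5 and 6 (0.0866 and 0.125) and the Abcb4 slope (0.0501) were lost, as was Cyp39a1 at week 1 (0.0510). The block also turned Slc51b at week 3 to 0.023 and Nr1h4 at week 4 to -0.020, neither called.

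Changes of sign with library size alone, none called, were Nr1h4 at week 1 (0.092) and week 5 (0.11), Slc10a1 at week 4 (0.082), Abcb4 at week 5 (0.27), Abcc2 at week 5 (0.20) and week 6 (0.21), Abcc3 at week 5 (0.10) and week 6 (0.035), Slc51b at week 6 against week 1 (0.033) and Cyp7a1 at week 6 (0.13). Abcb4 at week 5 was 0.090 without normal-diet libraries 1 and 5. Fits without 1 library gave, on both sides of 0, Nr1h4 from -0.11 to 0.020 at week 1, from -0.040 to 0.086 at week 3 and from -0.10 to 0.081 at week 4, Slc51b from -0.58 to 0.092 at week 3 and from -0.24 to 0.017 at week 6 against week 1, Abcb4 from -0.045 to 0.32 at week 4 and from -0.15 to 0.050 at week 5, Abcc2 from -0.076 to 0.11 at week 4, Slco1b2 from -0.11 to 0.21 at week 4, and Cyp7a1 from -0.33 to 0.040 at week 6.

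With 3 to 34 counts of Slc51b in a library and 3 to 5 libraries in a group, small changes of the rarer genes could not be told from no change at this depth.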

Other observations

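Within the normal-diet group, library 3 had the lowest level of Slco1b2 (813 CPM), Slco1a4 (14.0 CPM) and Abcc3 (27.9 CPM) and the highest level of Slc10a1 (405 CPM), Slc51b (5.30 CPM) and Nr0b2 (81.7 CPM) of the 5 libraries. In the other four, Slco1b2 ran between 954 and 1798 CPM, Slco1a4 between 26.1 and 39.9 CPM and Slc10a1 between 248 and 388 CPM. These values were looked up after the data were seen and no test was made.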
